A study of Mus musculus with 10 samples.

Results

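The genes described here encode the carriers that move amino acids, glucose and monocarboxylates such as lactate across membranes. They belong to the solute carrier families SLC1, SLC2, SLC3, SLC6, SLC7, SLC16, SLC36, SLC38 and SLC43. They were chosen by symbol (Slc, the family number, a and a digit) and not by a cut on their measured values, though earlier results of these data were known. Of the 22180 genes that the platform annotation named singly, 90 carried such a symbol and 86 of them were transporters: 7 of SLC1, 12 of SLC2, 2 of SLC3, 19 of SLC6, 15 of SLC7, 13 of SLC16, 4 of SLC36, 11 of SLC38 and 3 of SLC43. The other 4 symbols, Slc2a4rg-ps, Slc6a19os, Slc7a6os and Slc36a1os, name a pseudogene and transcripts beside or opposite a transporter and were left out of the counts. Where a gene had several probe sets, the one with the highest mean over the 10 arrays stood for it, and a further 2 matching probe sets that named a second gene were not used.

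RNA came from sorted mouse Treg cells, the Foxp3-expressing T cells that restrain immune responses, taken uncultured from mixed bone marrow chimeras, that is, from recipients that received marrow of more than 1 origin. There were 5 WT (wild type) samples and 5 LKB1-deficient samples (titled Stk11 deletion), each on its own array. Stk11 encodes LKB1, a protein kinase that activates AMPK and its relatives. The labels give no Cre driver, allele, strain, age or count of animals, and separate animals are not stated for the samples of a group. The p-values therefore cover the spread among these samples alone, part of which may be technical.

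T cells take up glucose mainly through the facilitative SLC2 carriers, release or take up lactate with protons through SLC16 carriers, and import amino acids through carriers that differ in substrate and driving ion. Several SLC7 carriers reach the cell surface only when bound to an SLC3 heavy chain, so that a working unit is a pair of products. SLC36 and some SLC38 carriers sit partly on lysosomes, where amino acid supply is read by mTORC1, the kinase complex that AMPK restrains. Activated T cells are known to raise Slc2a1, Slc7a5 with Slc3a2, and Slc1a5, and Myc is a known inducer of several of these genes.

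Values are log2 signals, so that a difference of 1 stands for a 2-fold change. The difference given is always LKB1-deficient minus WT, with the standard error (SE) of a limma fit over all genes. Calls required an adjusted p (Benjamini-Hochberg, over the 22180 genes) below 0.05. The strength of a signal depends on the probes, so the level of one gene cannot be set against that of another. The number of arrays limits the precision.

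Some arrays stood apart. WT arrays correlated with each other at 0.990 to 0.993 over all genes and LKB1-deficient arrays at 0.969 to 0.989. Markers of monocytes, macrophages and dendritic cells (20 of 20 measured) averaged 6.26 to 6.56 on WT arrays. Their mean was 6.86, 6.29, 6.57, 8.68 and 8.74 on LKB1-deficient arrays 1 to 5, and all 20 markers had a positive difference, 10 of them at an unadjusted p under 0.05 and 0 called. The mean of 13 measured B and plasma cell markers (of 14) was 4.68 to 5.16 on WT arrays, and 6.02, 4.83, 4.93, 5.64 and 5.83 on the LKB1-deficient arrays 1 to 5. The mean of the 10 Treg markers was 10.12 to 10.22 on WT arrays and 9.10, 10.19, 10.20, 9.99 and 9.88 on the LKB1-deficient ones. Of these 10, 2 were called lower, Nrp1 (-1.27, limma adjusted p = 0.00893) and Izumo1r (-0.70, adjusted p = 0.0209), and 0 higher. Neither gene overlapped between the groups. On LKB1-deficient arrays 2 and 3 Nrp1 read 7.95 and 7.95, against 8.87 to 9.22 on WT arrays. Izumo1r read 10.95 and 10.87 there, against 11.31 to 11.44 on WT arrays. The 9 measured T cell identity markers (of 10) averaged 10.66 to 10.71 on WT and 10.43 to 10.70 on LKB1-deficient arrays. The marker means of NK and innate lymphoid cells (4.34 to 4.57 and 4.48 to 5.57), CD8 T cells (6.38 to 6.71 and 6.88 to 7.18), neutrophils (4.15 to 4.56 and 4.04 to 5.29) and the erythroid and platelet lineages (5.20 to 5.41 and 5.44 to 6.37) also reached higher on LKB1-deficient arrays. Of these lists 1 gene each was called higher for NK cells (Klrd1, 1.53, adjusted p = 0.0170), CD8 T cells (Cd8a, 0.77, adjusted p = 0.0423) and the erythroid and platelet lineages (Gp9, 0.95, adjusted p = 0.0204), and the array means of the CD8 T and the erythroid and platelet lists did not overlap between the groups. The macrophage and B cell marker means were higher on LKB1-deficient arrays 1, 4 and 5 than on arrays 2 and 3. For part of the genes below, results are also given without those 3. Arrays 2 and 3 still lay above every WT array for the CD8 T mean (6.97 and 6.88) and the erythroid and platelet mean (5.44 and 5.55), and array 3 for the NK mean (4.80). The running codes of the sample descriptions also split the arrays into set 1 (replicates 1 to 3 of both groups) and set 2 (replicates 4 and 5). Stk11 itself read 6.61 to 6.95 on WT arrays, against 6.57, 6.01, 6.05, 6.71 and 6.78 on the LKB1-deficient ones, a difference of -0.36 (SE 0.16, adjusted p = 0.335), and the sources used here do not say whether its probes lie in the deleted part.

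Among the 86 transporters 1 was called lower, Slc36a4, and 0 were called higher. That is 1.16% lower, beside 0.830% of all genes called lower and 0.234% called higher. At an unadjusted p under 0.05 there were 5 transporters with a positive and 8 with a negative difference, 15.1% of the 86 and 14.0% of all genes. Every LKB1-deficient array lay below every WT array for 3 transporters, Slc36a4, Slc3a2 and Slc2a1, 3.49% of them and 3.71% of all genes. No transporter had every LKB1-deficient array above every WT array, which 0.996% of all genes had. By these counts the transporters as a group passed about as often as the other genes on the arrays.

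The differences were positive for 54 transporters (62.8%, beside 50.8% of all genes) and negative for 32, with a median of 0.070, beside 0.0034 for all genes. The sign differed with the signal. Of the 37 transporters whose mean lay above the median of all genes, 21 (56.8%) had a negative difference, with a median of -0.061. Of the 11090 such genes 62.5% had a negative difference, with a median of -0.065. Of the 49 dimmer transporters 38 (77.6%, beside 64.1% of the dimmer genes) had a positive difference, with a median of 0.112, beside 0.046 for the dimmer genes. All 8 transporters with an unadjusted p under 0.05 and a negative difference were among the brighter 37, which is 21.6% of them, beside 15.8% of the brighter genes. The SD was larger on LKB1-deficient than on WT arrays for 52 transporters (60.5%), and for 68.8% of all genes.

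**Figure D1:**
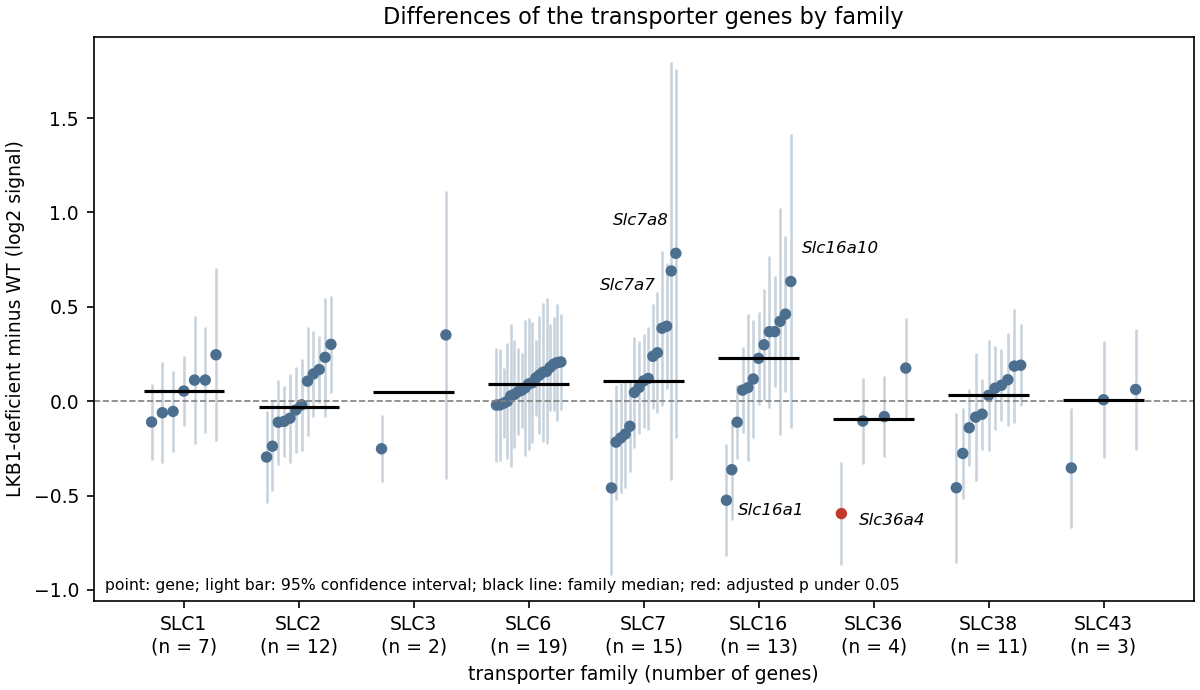
Differences of the 86 transporters (LKB1-deficient minus WT, log2 signal, vertical axis) by family, with n = 5 arrays a group; points are genes, light bars 95% confidence intervals and black lines family medians. Slc36a4 at -0.60 is the only gene past the adjusted p threshold (red), family medians run from -0.093 (SLC36) to 0.227 (SLC16), and the intervals of Slc7a7, Slc7a8 and Slc16a10 are the widest of the labelled genes.

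Transcription factors known to act on some transporter genes read short motifs just upstream of them. The sequences there are shown for 5 genes, Slc36a4 among them as the gene called, and are examples of the windows searched. They are the 250 bases before the annotated start, 5' to 3' on the gene's strand, from the RefSeq table of GRCm38.p6. Capitals mark CACGTG (the E-box bound by Myc), ACGTG (the core of the hypoxia element bound by HIF factors, contained in every CACGTG) or TGATGCAA (an amino acid response element core bound by Atf4), each searched on both strands. The window of Slc36a4 (chr9:15709488-15709737, plus strand), the gene called lower, held none of them.
Slc36a4: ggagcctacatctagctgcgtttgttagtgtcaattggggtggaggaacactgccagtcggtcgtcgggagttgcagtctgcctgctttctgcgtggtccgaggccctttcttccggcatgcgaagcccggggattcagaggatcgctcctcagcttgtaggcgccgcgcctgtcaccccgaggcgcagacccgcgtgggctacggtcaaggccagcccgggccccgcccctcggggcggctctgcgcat
That of Slc16a1 (chr3:104638414-104638663, plus strand) held 1 E-box.
Slc16a1: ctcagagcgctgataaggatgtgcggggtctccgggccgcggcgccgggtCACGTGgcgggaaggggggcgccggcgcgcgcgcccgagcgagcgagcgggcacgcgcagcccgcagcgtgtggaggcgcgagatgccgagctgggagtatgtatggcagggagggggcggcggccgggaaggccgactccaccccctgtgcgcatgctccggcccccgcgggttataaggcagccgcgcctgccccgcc
The window of Slc2a1 (chr4:119108495-119108744, plus strand) held ACGTG 31 bases before the start.
Slc2a1: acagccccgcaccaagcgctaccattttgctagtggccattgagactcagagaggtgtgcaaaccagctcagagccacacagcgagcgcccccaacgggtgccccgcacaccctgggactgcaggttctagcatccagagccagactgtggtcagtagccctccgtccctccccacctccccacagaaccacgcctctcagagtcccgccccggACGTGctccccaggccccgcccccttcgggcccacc
For Slc3a2 (chr19:8713898-8714147, minus strand) ACGTG lay on the opposite strand, read as CACGT, 159 bases before the start.
Slc3a2: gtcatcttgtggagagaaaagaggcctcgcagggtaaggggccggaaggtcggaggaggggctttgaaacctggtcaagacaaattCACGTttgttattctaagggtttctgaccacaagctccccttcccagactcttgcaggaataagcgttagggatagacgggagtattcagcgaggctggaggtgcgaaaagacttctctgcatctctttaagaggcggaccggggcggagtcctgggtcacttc
The window of Slc7a11 (chr3:50443614-50443863, minus strand) held TGATGCAA once on each strand, 58 and 39 bases before the start.
Slc7a11: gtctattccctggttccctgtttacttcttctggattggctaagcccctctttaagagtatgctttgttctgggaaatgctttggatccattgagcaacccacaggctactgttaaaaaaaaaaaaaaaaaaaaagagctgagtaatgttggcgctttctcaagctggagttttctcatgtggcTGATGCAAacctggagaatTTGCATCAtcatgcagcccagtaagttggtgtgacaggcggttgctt

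The table held 82 windows for 63 of the 86 transporters. CACGTG occurred in 11 of the 82 (13.4%) and in 6.02% of all 32851 windows, and ACGTG in 21 (25.6%, 19 genes) and in 16.6% of all. TGATGCAA occurred in 2 windows (2.44%, Slc7a11 and Slc7a7) and in 0.791% of all, and TGATGAAA, its variant, in 1 (1.22%, Slc7a7) and in 0.883% of all. Transporter windows also had a higher GC content, with a median of 55.6% beside 52.4%. A match is a description of the letters, not of binding.

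Among the SLC36 amino acid carriers Slc36a4 was the one called. It encodes PAT4, known as a high-affinity carrier of proline and tryptophan. On WT arrays 1 to 5 it read 8.86, 8.46, 8.62, 8.41 and 8.69, a mean of 8.61 ± 0.18 (SD, n = 5). On LKB1-deficient arrays 1 to 5 it read 8.28, 7.96, 8.19, 7.72 and 7.92, a mean of 8.01 ± 0.22 (SD, n = 5). The groups did not overlap, and LKB1-deficient arrays 2 and 3, with lower macrophage and B cell marker means, lay within the range of the other LKB1-deficient arrays. The difference was -0.60 (SE 0.13, 95% confidence interval -0.87 to -0.32, limma adjusted p = 0.0463), or 1.51-fold lower. Its size was -0.50 in set 1, -0.73 in set 2 and -0.53 without LKB1-deficient arrays 1, 4 and 5, none of them past the threshold (adjusted p = 0.338, 0.112 and 0.107). Leaving out 1 array at a time kept the difference between -0.66 and -0.52, and the call was kept in 1 of the 10 fits, that without LKB1-deficient array 1. A second, dimmer probe set of Slc36a4 differed by -0.08 (adjusted p = 0.835), and with the mean of both probe sets the difference was -0.34 (adjusted p = 0.141).

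The other SLC36 genes were not called. Slc36a1, which encodes the lysosomal carrier PAT1, had a mean of 7.08 ± 0.20 on WT and 7.25 ± 0.19 on LKB1-deficient arrays (difference 0.18, SE 0.12, adjusted p = 0.569). The dim Slc36a3 differed by -0.11 (adjusted p = 0.709). The family median was -0.093 over the 4 genes.

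**Figure D2:**
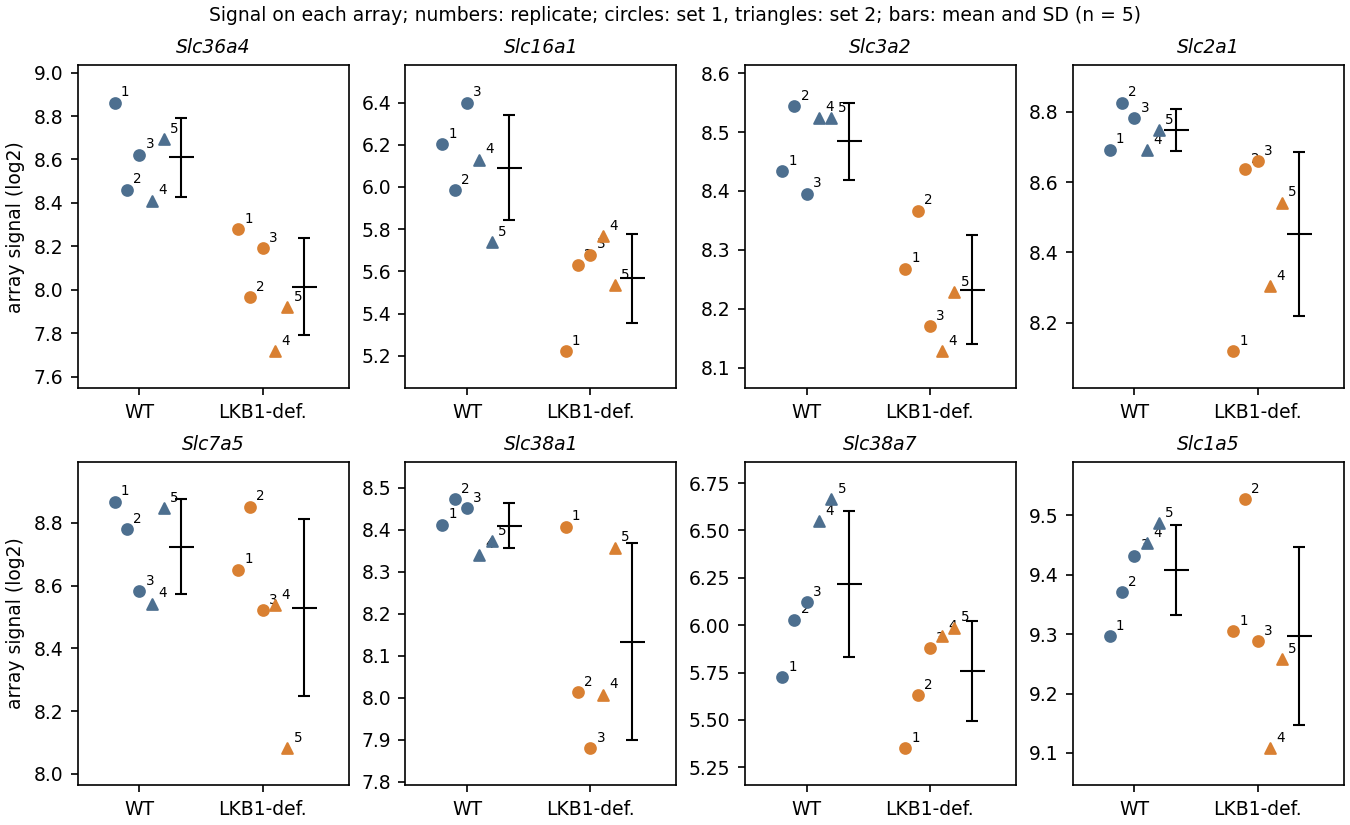
Log2 signal of 8 transporters on each array (points with the replicate number; circles set 1, triangles set 2), with the mean and SD of 5 arrays a group. For Slc36a4, Slc3a2 and Slc2a1 every LKB1-deficient array lies below every WT array, while the groups overlap for Slc16a1, Slc7a5, Slc38a1, Slc38a7 and Slc1a5.

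The surface heavy chain Slc3a2 (CD98hc), the partner of Slc7a5, Slc7a6, Slc7a7, Slc7a8 and Slc7a11, read 8.43, 8.54, 8.40, 8.52 and 8.52 on WT arrays. It read 8.27, 8.37, 8.17, 8.13 and 8.23 on LKB1-deficient arrays. The groups did not overlap, though the gap between the lowest WT and the highest LKB1-deficient array was small. The difference was -0.25 (SE 0.08) and did not pass over all genes (limma adjusted p = 0.174). It was -0.22 without LKB1-deficient arrays 1, 4 and 5. The other heavy chain, Slc3a1, the partner of Slc7a9 in kidney and gut, spread from 3.94 to 6.19 on LKB1-deficient arrays and from 4.37 to 5.48 on WT arrays, and its difference of 0.35 had an SE of 0.35.

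Of the light chains that pair with Slc3a2, 0 of the 5 described here were called over all arrays, and 0 had an unadjusted p under 0.05. Slc7a5 (LAT1), the main importer of leucine and other large neutral amino acids in T cells, read 8.87, 8.78, 8.58, 8.54 and 8.85 on WT arrays. On LKB1-deficient arrays it read 8.65, 8.85, 8.52, 8.54 and 8.08, with array 5 lowest and the others within the WT range or just below it. Its difference was -0.19 (SE 0.14, adjusted p = 0.567), and -0.04 without arrays 1, 4 and 5. Slc7a6, an exchanger of cationic for neutral amino acids, read 7.56 to 7.93 on WT arrays and 7.30 to 7.58 on LKB1-deficient arrays 2 to 5, but 6.29 on array 1. Its difference was -0.46 (SE 0.21, adjusted p = 0.360), and -0.22 without LKB1-deficient array 1. Slc7a11, the cystine importer of xCT, was dim throughout, at 2.68 to 2.97 on WT arrays, with 3.91 on LKB1-deficient array 1 and 3.49 on array 5 (difference 0.39, SE 0.19, adjusted p = 0.390). Without arrays 1, 4 and 5 its difference was 0.15. A second dim probe set of Slc7a11 read 4.68 on LKB1-deficient array 1, but 2.87 on array 5, within its WT range of 2.69 to 2.90. That probe set differed by 0.35 (SE 0.33).

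Slc7a7 and Slc7a8 were high on 2 arrays. Slc7a7, which exchanges cationic for neutral amino acids and is known for its expression in macrophages, read 5.55 to 6.02 on WT arrays, 5.30, 5.64 and 5.70 on LKB1-deficient arrays 1 to 3, but 7.71 and 8.35 on arrays 4 and 5. Slc7a8 (LAT2), another carrier of neutral amino acids, read 3.80 to 4.49 on WT arrays, 3.91, 4.05 and 4.46 on LKB1-deficient arrays 1 to 3, and 5.83 and 6.65 on arrays 4 and 5. Over all arrays their differences were 0.69 (SE 0.51, adjusted p = 0.599) and 0.78 (SE 0.45, adjusted p = 0.479). These 2 genes, and Slc7a2, Slc16a10, Slc16a7 and Slc16a9 below, are described because of this pattern, seen in their values. Slc1a3, also below, had the pattern too, but was already named among the 3 SLC1 genes with the smallest p.

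Slc16a10, which carries aromatic amino acids, read 4.76 to 5.07 on WT arrays, 5.55, 4.75 and 4.48 on LKB1-deficient arrays 1 to 3, and 6.41 and 6.67 on arrays 4 and 5. Slc7a2, a carrier of arginine and other cationic amino acids, read 3.36 to 3.67 on WT arrays, 3.57, 3.47 and 3.63 on LKB1-deficient arrays 1 to 3, and 4.14 and 4.16 on arrays 4 and 5. Slc16a7 (MCT2) read 4.22 and 4.27 on arrays 4 and 5, Slc16a9 5.28 and 6.24, and Slc1a3, a glutamate carrier, 4.06 and 3.88. A second probe set of Slc16a9 read 6.18 and 6.55 there, but also 5.09 on LKB1-deficient array 3, against 3.90 to 4.44 on WT arrays. In all, 12 of the 86 transporters (14.0%) had LKB1-deficient arrays 4 and 5 both above the other 8, beside 5.39% of all genes. Both lay below the other 8 for 5 (5.81%), beside 4.36%. The 12 were these 7 with Slc16a14, Slc2a13, Slc38a8, Slc43a2 and Slc6a12.

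In set 2 alone, 2 LKB1-deficient against 2 WT arrays, 4 transporters were called higher (4.65%), beside 1.91% of all genes. They were Slc7a8 (2.29, limma adjusted p = 0.0107), Slc7a7 (2.01, adjusted p = 0.00725), Slc16a10 (1.60, adjusted p = 0.00396) and Slc7a2 (0.78, adjusted p = 0.0438). In set 1 their differences were -0.22, -0.19, -0.0086 and -0.090. A fit with a term for the difference between the sets, added after these values were seen, gave set 2 minus set 1 as 2.20 for Slc7a7 (adjusted p = 0.00220), 2.51 for Slc7a8 (adjusted p = 0.00339) and 0.87 for Slc7a2 (adjusted p = 0.0337). With 1 array left out, the first 2 kept their calls in all 10 fits, while Slc7a2 lost its call in 8 of 10 (adjusted p up to 0.160). Slc16a10, at 1.61, did not pass (adjusted p = 0.0816). Those 3 are 3.49% of the transporters, beside 1.07% of all genes that were called with a larger difference in set 2. In the same 2 LKB1-deficient samples the macrophage marker mean was 8.68 and 8.74, and it was at most 6.86 on every other array. With the macrophage and B cell marker means as covariates the differences over all arrays were -0.32 for Slc7a7, -0.020 for Slc7a8, -0.28 for Slc16a10 and 0.01 for Slc7a2. These genes were picked for high values on LKB1-deficient arrays 4 and 5, where the macrophage marker mean was also highest. The fall of their differences in that fit was therefore largely set in advance and is no test of other cells. The part of other cells in these values was not tested. More cells of a type and more RNA per cell cannot be told apart in such bulk samples.

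**Figure D3:**
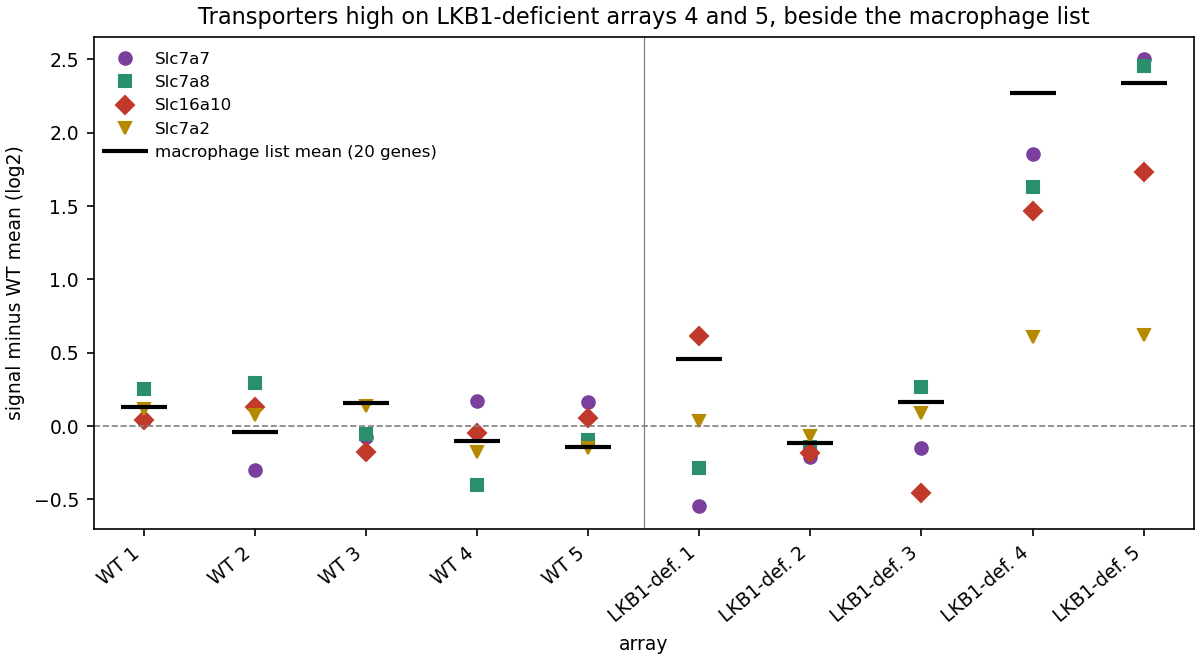
Log2 signal minus the WT mean (vertical axis) for Slc7a7, Slc7a8, Slc16a10 and Slc7a2 (coloured symbols) and for the mean of the 20 macrophage markers (black bars) on the 10 arrays. All of them are highest on LKB1-deficient arrays 4 and 5, and on arrays 1 to 3 only Slc16a10, on array 1, stands clearly above the WT arrays among the 4 genes.

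Of the other cationic amino acid carriers, Slc7a1 (CAT1), the general arginine importer, read 7.41 to 7.74 on WT arrays, against 7.89, 7.33, 7.20, 7.09 and 7.21 on the LKB1-deficient ones. Array 1 lay above all WT arrays and arrays 2 to 5 below all of them. Its difference was -0.22 (SE 0.14, adjusted p = 0.534), and -0.30 without arrays 1, 4 and 5. Slc7a3 (CAT3), dim in all samples, read 3.37 to 3.75 on WT arrays, against 4.28, 4.11, 3.98, 3.75 and 3.38 on the LKB1-deficient ones, a difference of 0.40 (SE 0.15, adjusted p = 0.261). Over the 15 SLC7 genes 10 differences were positive, with a median of 0.107, and 13 of the genes had the larger SD on LKB1-deficient arrays.

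The glucose carrier Slc2a1 (GLUT1) read 8.69, 8.83, 8.78, 8.69 and 8.75 on WT arrays. On LKB1-deficient arrays it read 8.12, 8.64, 8.66, 8.30 and 8.54. All 5 LKB1-deficient arrays lay below all 5 WT arrays, with arrays 2 and 3 just under them and arrays 1 and 4 farthest below. The difference of -0.30 (SE 0.11) did not pass over all genes (limma adjusted p = 0.250), and it was -0.10 (adjusted p = 0.731) without LKB1-deficient arrays 1, 4 and 5, which are the 3 lowest. A second, dimmer probe set differed by -0.09 (adjusted p = 0.842).

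The remaining SLC2 genes were not called, and their groups overlapped. Slc2a3 (GLUT3), the other glucose carrier known from lymphocytes, read 6.83 to 7.16 on WT arrays and 6.75 to 7.16 on LKB1-deficient ones (difference -0.11, SE 0.10, adjusted p = 0.686). Slc2a6, a carrier of intracellular membranes, differed by 0.23 (adjusted p = 0.516), with its highest values, 5.36 and 5.34, on LKB1-deficient arrays 1 and 4. Slc2a9, a urate carrier, differed by -0.24 (SE 0.11, adjusted p = 0.360). The dim Slc2a7 differed by 0.30 (SE 0.12, adjusted p = 0.266), with values of 4.09 to 4.64 on WT and 4.53 to 4.92 on LKB1-deficient arrays. The family median was -0.033 over the 12 genes.

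Of the monocarboxylate carriers, Slc16a1 (MCT1), which moves lactate and pyruvate with protons, read 6.20, 5.99, 6.40, 6.13 and 5.74 on WT arrays. It read 5.22, 5.63, 5.68, 5.77 and 5.54 on LKB1-deficient arrays. The groups overlapped only through WT array 5, which lay just below LKB1-deficient array 4, and LKB1-deficient array 1 was the lowest of all. The difference was -0.52 (SE 0.14, 95% confidence interval -0.82 to -0.23), second in size to Slc36a4 among the negative ones, and did not pass over all genes (limma adjusted p = 0.0946). It was -0.44 (adjusted p = 0.247) without LKB1-deficient arrays 1, 4 and 5, -0.69 in set 1 and -0.28 in set 2.

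Slc16a3 (MCT4), the lactate exporter of glycolytic cells, had the opposite sign. WT arrays read 5.77, 5.75, 5.82, 6.40 and 5.82, and LKB1-deficient arrays 5.94, 6.32, 6.15, 6.34 and 6.29. WT array 4 was the highest of all, and the other 4 WT arrays lay below all LKB1-deficient ones. The difference was 0.30 (SE 0.14, adjusted p = 0.348), 0.33 without LKB1-deficient arrays 1, 4 and 5, and 0.42 (adjusted p = 0.123) without WT array 4.

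Slc16a13 read 5.32 to 5.66 on WT and 4.81 to 5.40 on LKB1-deficient arrays (difference -0.36, SE 0.12, adjusted p = 0.189). Slc16a11, dim, read 3.86 to 4.34 and 4.19 to 4.72 (difference 0.37, SE 0.13, adjusted p = 0.232). Slc16a6 and Slc16a5, the brightest of the family by signal, differed by 0.06 (adjusted p = 0.856) and 0.07 (adjusted p = 0.905). The family had the highest median of all, 0.227 over 13 genes with 10 positive differences. Without LKB1-deficient arrays 1, 4 and 5 that median was 0.0094.

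Glutamine and other neutral amino acids enter T cells largely through Slc1a5 (ASCT2) and the SLC38 carriers. Slc1a5 read 9.30 to 9.49 on WT arrays, against 9.30, 9.53, 9.29, 9.11 and 9.26 on the LKB1-deficient ones (difference -0.11, SE 0.09, adjusted p = 0.651). The groups overlapped, with arrays 4 and 5 lowest, and a second probe set differed by -0.10. Its relative Slc1a4 (ASCT1) differed by 0.11 (SE 0.13), with 5.01 on LKB1-deficient array 1 and 4.28 to 4.53 on all others. Slc1a6, a glutamate carrier of neurons, differed by -0.06 (SE 0.12). The SLC1 median was 0.054 over 7 genes.

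Slc38a1 (SNAT1), a sodium-coupled glutamine importer, read 8.41, 8.47, 8.45, 8.34 and 8.37 on WT arrays. LKB1-deficient arrays read 8.41, 8.01, 7.88, 8.01 and 8.36, so that arrays 2, 3 and 4 lay below all WT arrays and arrays 1 and 5 among them. The difference was -0.28 (SE 0.11, adjusted p = 0.281), and it was larger without LKB1-deficient arrays 1, 4 and 5, at -0.46 (adjusted p = 0.0560). Slc38a2 (SNAT2), its amino acid-responsive relative, read 9.12 to 9.53 on WT and 9.26 to 9.70 on LKB1-deficient arrays (difference 0.11, SE 0.11, adjusted p = 0.709).

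The lysosomal members had opposite signs. Slc38a7, which exports glutamine and asparagine from lysosomes, read 5.72, 6.03, 6.12, 6.55 and 6.66 on WT arrays, against 5.35, 5.63, 5.88, 5.94 and 5.99 on the LKB1-deficient ones. Both groups were higher in set 2 than in set 1, and within each set every LKB1-deficient array except array 3 lay below every WT array. The difference was -0.46 (SE 0.18, adjusted p = 0.274), -0.34 in set 1 and -0.64 in set 2. Slc38a9, a carrier and sensor of lysosomal arginine that acts on mTORC1, read 7.44 to 7.63 on WT arrays, at least 7.74 on LKB1-deficient arrays 1 to 3, and 7.61 and 7.57 on arrays 4 and 5. Thus arrays 1 to 3 lay above all WT arrays and arrays 4 and 5 among them, and the difference was 0.19 (SE 0.10, adjusted p = 0.426). The SLC38 median was 0.031 over 11 genes.

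Among the SLC43 genes, Slc43a3, a carrier of purine bases, read 6.35 to 6.83 on WT arrays, against 6.04, 5.99, 6.58, 6.42 and 6.62 on the LKB1-deficient ones (difference -0.35, SE 0.15, adjusted p = 0.297). Its difference was -0.59 in set 1 and 0.0020 in set 2. Slc43a1 and Slc43a2, carriers of branched-chain and other large neutral amino acids, differed by 0.06 and 0.0076.

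The SLC6 family, sodium- and chloride-coupled carriers of amino acids and transmitters, was for the most part dim. Slc6a6, the taurine carrier, had the brightest signal of the 19 and read 9.03 to 9.37 on WT and 9.07 to 9.54 on LKB1-deficient arrays (difference 0.05, 95% confidence interval -0.18 to 0.28, adjusted p = 0.886). Slc6a8, the creatine carrier, had means of 5.71 ± 0.25 and 5.71 ± 0.23. The 3 smallest p-values belonged to Slc6a12 (0.21, adjusted p = 0.467), Slc6a11 (0.20, adjusted p = 0.490) and Slc6a7 (0.18, adjusted p = 0.491), carriers of betaine, GABA and proline. All 3 were dim, and 15 of the 19 differences were positive, with a median of 0.091.

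**Figure D4:**
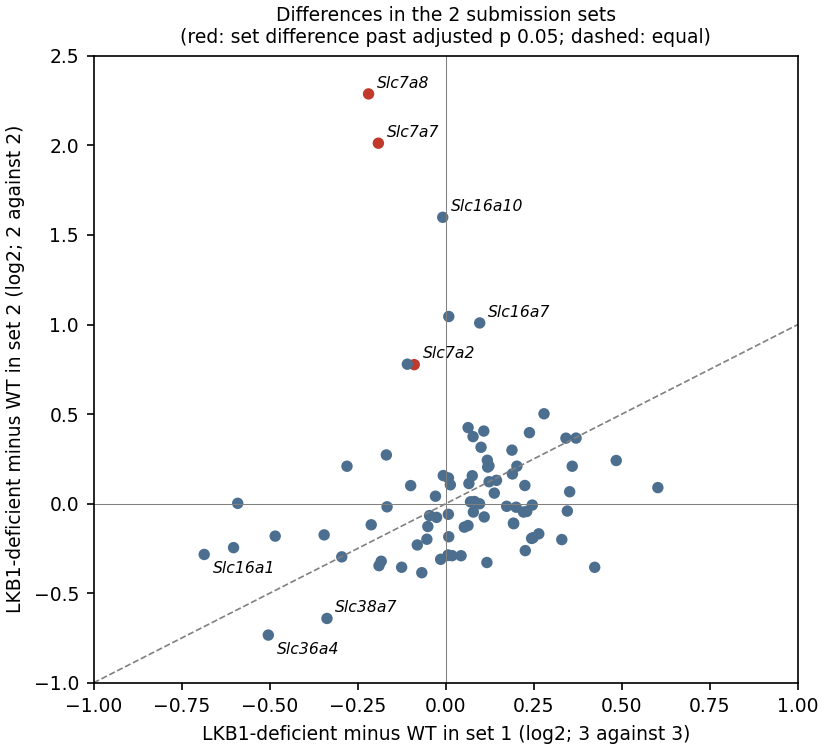
Difference in set 2 (2 arrays against 2, vertical axis) against that in set 1 (3 against 3, horizontal axis) for the 86 transporters, in log2 units; the dashed line marks equal differences and red points the 3 genes whose set difference passed. Slc7a8 and Slc7a7 lie at 2.29 and 2.01 in set 2 and below 0 in set 1, while Slc36a4 is negative in both, at -0.50 and -0.73.

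LKB1-deficient array 1 lay above the other 9 arrays for 17 transporters (19.8%, beside 18.2% of all genes) and below them for 9 (10.5%, beside 19.6%). The 9 held Slc2a1, Slc16a1, Slc7a6, Slc7a7, Slc38a7, Slc38a6, Slc3a1, Slc43a1 and Slc43a2.

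Genes around the carriers were read from lists that were set with earlier results of these data known. Of the transcription factors known to act on transporter genes, 11 of 11 were measured, with 1 called higher and 1 called lower. Of all genes 0.234% were called higher and 0.830% lower. Because of how the list was set, these 2 calls are a description and not a test of the list. Myc read 9.47 to 9.68 on WT arrays, against 8.21, 9.08, 9.14, 8.92 and 8.75 on the LKB1-deficient ones, with no overlap and array 1 lowest (difference -0.76, SE 0.15, limma adjusted p = 0.0398). The call on Myc was kept in 3 of the 10 fits that leave out 1 array, those without LKB1-deficient array 1, 2 or 3 (adjusted p from 0.00955 to 0.109 over the 10), and the difference was -0.47 (adjusted p = 0.0557) without LKB1-deficient arrays 1, 4 and 5. Epas1, which encodes the hypoxia factor HIF-2alpha, read 5.13 to 5.58 on WT arrays, against 6.62, 7.69, 7.20, 7.57 and 7.54 on the LKB1-deficient ones, again with no overlap (difference 1.93, SE 0.19, adjusted p = 9.87e-04). It was past the threshold in all 10 such fits, and its difference was 2.06 without arrays 1, 4 and 5. Hif1a differed by 0.08 (adjusted p = 0.849). Of the 19 transporters with an ACGTG core in a window, 11 had a negative and 8 a positive difference, and 0 were called. Of the 11 among them with CACGTG, 6 had a negative and 5 a positive difference, and 0 were called. Over all 86 transporters 37.2% of the differences were negative. Only 63 of the 86 had a window, and the sign differed with the signal, so this share is not a like comparison. With 0.830% of all genes called lower and 0.234% higher, 0 calls among so few genes tell little.

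Of the carriers' partners and trafficking proteins 10 of 11 were measured and 0 were called (limma; 2 at an unadjusted p under 0.05), with a median difference of 0.048. Bsg, the chaperone of MCT1 and MCT4, differed by -0.04 (adjusted p = 0.934) and Txnip, which removes GLUT1 from the surface, by -0.03 (adjusted p = 0.928). The smallest p-values were those of Tbc1d4, a regulator of glucose carrier traffic (-0.32, adjusted p = 0.279), and Emb, the chaperone of MCT2 (0.22, adjusted p = 0.351). All 15 genes of the amino acid stress response were measured and 0 were called (3 at an unadjusted p under 0.05), with a median of -0.037. Psat1, of serine synthesis, differed by -0.54 (adjusted p = 0.110), Trib3 by 0.32 (adjusted p = 0.246) and Atf4 by -0.02 (adjusted p = 0.926).

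Of the enzymes that act first on the imported substrates 17 of 19 were measured and 0 were called (limma; 4 at an unadjusted p under 0.05), with a median of -0.126. Ldhb, a lactate dehydrogenase subunit, read 7.63 to 7.98 on WT and 7.12 to 7.54 on LKB1-deficient arrays, with no overlap (difference -0.44, SE 0.11, adjusted p = 0.0791). Bcat1, which removes the amino group of branched-chain amino acids, differed by -0.42 (adjusted p = 0.138). All 20 genes of amino acid sensing upstream of mTORC1, Slc38a9 among them, were measured and 0 were called (0 also at an unadjusted p under 0.05), with a median of -0.075. The smallest p-values there were those of Slc38a9 and of Nprl2, a subunit of the GATOR1 complex (-0.26, adjusted p = 0.393).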

How the data were processed

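Total RNA of the sorted cells, in amounts of a few nanograms, was amplified and biotin-labelled with NuGEN kits before hybridisation, per the labels' protocols. The values deposited by the authors are on a log2 scale, and RMA and Partek 6.6 are named in the submitters' processing notes, while the sources used here give neither a genome build for the array nor the settings. Amplification can distort the levels of single transcripts, and RMA's quantile step hides a shift shared by all of them. There are no detection calls, so a dim signal cannot be told from background.

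Of 41345 probe sets, 23521 named 1 gene in the platform annotation, 1814 several and 16010 none. Singly named probe sets gave 22180 genes, each by its probe set with the highest mean, with no filter on low values. Groups and replicate numbers came from the sample titles, and 0 columns were left unused. Groups were compared with lmFit and eBayes in limma 3.58.1 (R 4.3.3), with no covariate, and adjusted p-values are Benjamini-Hochberg over all genes. The text names called transporters, 16 fixed ones, and per family the 2 with the highest mean and the 3 with the smallest p. Of each pathway list it names the called genes or the 2 with the smallest p. Outside this rule it also names Bsg, Txnip, Atf4 and Hif1a. Members and lists were chosen with earlier results of these data known. Genes picked after their values were seen are said to be so. The code was tested on simulated data. Alternatives were the mean of a gene's probe sets, removal of the dimmest 40% of genes, array medians subtracted, quantile normalization run again, array quality weights, a trended robust prior, replicate number or submission set as a block, each set alone, marker means as covariates, leaving out arrays, and an adjusted p under 0.01. A term for the difference between the sets was added after seeing the data.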

Additional observations from a re-analysis of the deposited data

Results flagged for a closer look

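In 86 groups of 5 arrays (both groups of the 43 named transporters) the array farthest from the rest was compared with the spread of its group by Dixon's test, and 7 groups had an array beyond its 95% critical value, where chance gives about 1 in 20. LKB1-deficient array 1 stood apart for Slc7a6, at 6.29 with the next array at 7.30, and for Slc1a4, at 5.01 with the next at 4.46. WT array 1 stood apart for Slc2a9 (6.17, next 6.41), Slc36a1 (6.74, next 7.09) and Slc43a2 (6.58, next 6.92). WT array 3 stood apart for Slc16a5 (6.88, next 7.31) and WT array 4 for Slc16a3 (6.40, next 5.82).

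The LKB1-deficient minus WT difference was larger in set 2 than in set 1 by 2.20 for Slc7a7, 2.51 for Slc7a8 and 0.87 for Slc7a2 (log2, limma adjusted p = 0.00220, 0.00339 and 0.0337), by a test of the difference between the sets that was added after the values had been seen. Slc7a2 lost its call in 8 of the 10 fits that leave out 1 array, and the other 2 genes kept theirs in all 10. The macrophage marker mean of LKB1-deficient arrays 4 and 5 stood at 8.68 and 8.74 beside 6.31 and 6.26 on WT arrays 4 and 5. With 2 LKB1-deficient arrays in set 2, what the sets differ in and these 2 samples cannot be told apart.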

How the results depend on the processing

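The count of 1 transporter called lower (limma, Slc36a4) was 1 again after removal of the dimmest 40% of genes, with array medians subtracted, with a trended robust prior, with array quality weights and with the submission set as a block. It was 0 with the mean of a gene's probe sets, after a second quantile normalization, in set 1 alone, in set 2 alone, with the marker means as covariates, without LKB1-deficient arrays 1, 4 and 5, and at an adjusted p under 0.01. With 1 array left out it lay between 0 and 1, and was 1 only without LKB1-deficient array 1. Slc36a4 kept a negative difference in all of these fits (-0.34 with the mean of its probe sets, adjusted p = 0.141; -0.52 after the second quantile normalization, adjusted p = 0.115; -0.53 with the covariates, adjusted p = 0.120), with an adjusted p of 0.0180 to 0.125 when 1 array was left out. The count of transporters called higher was 0 except in set 2 alone, where it was 4. With the replicate number as a block the count called lower was 0 and the adjusted p of Slc36a4 0.0663. Same-numbered arrays deviated together at correlations of 0.0312, 0.102, -0.0717, -0.00298 and -0.0788, and 3 of 10 arrays correlated best with their own number, so the numbers were not taken to pair the samples. A pairing is not excluded by this, and the fit with the replicate number as a block allows for it.

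Family medians moved as follows. The median over all transporters was 0.031 with array medians subtracted (-0.036 over all genes), -0.011 in set 2, 0.0034 with the covariates and 0.0045 without LKB1-deficient arrays 1, 4 and 5. Without the dimmest 40% of genes the medians of SLC1, SLC7 and SLC38 were -0.061, -0.13 and -0.085. That of SLC2 with array medians subtracted was -0.072. In set 1 the medians of SLC2, SLC7, SLC16 and SLC36 were 0.025, -0.015, 0.096 and -0.016, and in set 2 those of SLC1, SLC36 and SLC38 were -0.066, -0.21 and -0.17. With the covariates SLC2, SLC7 and SLC16 stood at 0.029, -0.0013 and 0.026, and without arrays 1, 4 and 5 SLC2 and SLC16 at 0.035 and 0.0094.

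Of 508 values of the 43 named transporters under the 12 alternatives that leave out no single array, 462 kept their sign and 46 turned it, all of genes not called over all arrays. In set 1 alone those were Slc1a5 (0.0069), Slc2a3 (0.0064), Slc16a6 (-0.0071), Slc1a6 (0.12), Slc1a3 (-0.11), Slc36a3 (0.018), Slc43a2 (-0.17), Slc7a7 (-0.19), Slc7a8 (-0.22), Slc16a10 (-0.0086) and Slc7a2 (-0.090). In set 2 alone they were Slc38a2 (-0.047), Slc1a4 (-0.020), Slc6a8 (0.042), Slc16a5 (-0.11), Slc38a9 (-0.041) and Slc43a3 (0.0020). With the covariates they were Slc2a6 (-0.060), Slc6a6 (-0.074), Slc1a6 (0.091), Slc1a3 (-0.11), Slc6a8 (0.030), Slc6a12 (-0.0084), Slc16a5 (-0.028), Slc43a2 (-0.19), Slc7a7 (-0.32), Slc7a8 (-0.020), Slc16a10 (-0.28) and Slc16a9 (-0.20). Without LKB1-deficient arrays 1, 4 and 5 they were Slc2a3 (0.028), Slc2a6 (-0.068), Slc6a6 (-0.038), Slc1a6 (0.087), Slc1a3 (-0.11), Slc1a4 (-0.024), Slc6a8 (0.0027), Slc6a12 (-0.024), Slc16a5 (-0.14), Slc43a2 (-0.15), Slc7a7 (-0.18), Slc16a10 (-0.32) and Slc16a9 (-0.18). Array medians subtracted turned Slc43a2 (-0.032), quality weights Slc6a8 (0.024) and Slc16a5 (-0.018), and the second quantile normalization Slc6a8 (0.014). With 1 array left out, 15 of 430 values turned: the ranges were -0.0097 to 0.11 for Slc6a6, -0.028 to 0.17 for Slc43a1, -0.14 to 0.028 for Slc1a6, -0.010 to 0.17 for Slc1a4, -0.087 to 0.084 for Slc6a8, -0.095 to 0.18 for Slc16a5 and -0.080 to 0.091 for Slc43a2. The set difference of Slc7a2 lost its call in 8 of the 10 fits that leave out 1 array (highest adjusted p = 0.160), while those of Slc7a7 and Slc7a8 stayed past the threshold in all 10 (highest adjusted p = 0.0175 and 0.0302). The causes were not tested.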
